A study of Mus musculus with 3 samples.

Results

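The cells described are stromal cells of mouse bone marrow that carried RNA of Alpl or Wif1 with little RNA of Ibsp and Col1a1, here called Alpl/Wif1 cells. There were 164 of them among 8336 cells kept, 84 of 4371 in the WT library, 30 of 1790 in the R76W library and 50 of 2175 in the D130 library. The study asked how connexin 43 (Cx43, encoded by Gja1) in osteocytes bears on marrow stromal cells, with prostaglandin E2 named in its title. Marrow cells of C57BL/6 mice aged 6 to 8 weeks, including cells freed from bone fragments with collagenase, were sorted after staining with antibodies to CD31, CD45, Ter119, CD51 and PDGFRα, and were sequenced as single cells with 10x Genomics 3′ chemistry. Each of the 3 genotypes was 1 library. WT mice carried no transgene that the labels name, R76W mice carried a Cx43 form described as inhibiting gap junctions between osteocytes, and the series text describes Δ130–136, read here as the library labelled D130, as blocking both gap junctions and hemichannels. The promoter that drives either transgene, the number and sex of the mice and any pooling are not given in the sources used here.

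Osteoblasts, the cells that make bone, arise from marrow stromal cells, many of which express the leptin receptor (LepR) and the chemokine CXCL12. Alpl encodes tissue-nonspecific alkaline phosphatase, an enzyme that releases phosphate for mineral and appears early in the osteoblast lineage, while Ibsp (bone sialoprotein), Col1a1 (collagen type I) and Bglap (osteocalcin) mark cells that lay down and mineralize matrix. Wif1 encodes a secreted protein that binds Wnt ligands and keeps them from their receptors.

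Barcodes below 500 genes or 1000 UMIs (unique molecular identifiers, each a counted RNA molecule) or above 10% mitochondrial UMIs were left out. An Alpl/Wif1 cell had at least 5 UMIs of Alpl and Wif1 together per 10000 UMIs of the cell (p10k), under 5 p10k of Ibsp, under 100 p10k of Col1a1, no UMI of Ptprc (CD45) and at most 1% hemoglobin UMIs. The cells were thus chosen by their levels of these genes, whose values are given as a description. Where 3 values follow each other, they are those of WT, R76W and D130, in that order. The lowest Alpl plus Wif1 level inside the limit was 5.02, 5.05 and 6.83 p10k, and the highest level outside it was 4.98, 4.94 and 4.999. The highest Ibsp level inside was 4.85, 4.90 and 4.53 p10k, and the lowest outside was 5.02, 5.03 and 5.33. A single UMI sufficed in 4 WT cells, 1 R76W cell and no D130 cell. The Ibsp limit removed most candidates: of 784 cells with Alpl or Wif1 and without Ptprc or hemoglobin, 599 were at or above it. In these libraries Ibsp RNA was not limited to the cells counted below as osteoblasts. Whether part of it was RNA released from other cells was not tested. Of cells with at least 20 p10k of Cxcl12 plus Lepr, 89.0% in WT, 93.5% in R76W and 83.0% in D130 had at least 5 p10k of Ibsp. These were counted without Ptprc or hemoglobin and at any Col1a1, and those with Ibsp numbered 1334, 1114 and 881. Cells with at least 5 p10k of Ibsp and 100 p10k of Col1a1, counted as osteoblasts, numbered 125, 91 and 136.

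Across the Alpl/Wif1 cells, the UMIs summed to 643762, 276522 and 615251, and the median cell held 8105, 9296 and 11292 UMIs. Their median mitochondrial share was 3.05%, 3.34% and 4.996%. The libraries shared 4 to 8 barcodes in each pair, none of them a cell described here. Levels below are UMIs per 1000000 UMIs summed over the Alpl/Wif1 cells of a library (CPM), with exact 95% Poisson intervals that cover counting error only. With 1 library per genotype no test of a genotype was possible, a difference between libraries cannot be told apart from a difference between animals, sorts or runs, and none has a replicate check. In sums over cells, fewer cells with a transcript and less of it per cell cannot be told apart. The groups used for comparison were 441 Alpl or Wif1 cells with at least 5 p10k of Ibsp and low Col1a1 (Ibsp-high cells, 228, 114 and 99), 3209 LepR+ cells of any Ibsp without Alpl or Wif1 at that level (1224, 1035 and 950) and 352 osteoblasts (125, 91 and 136). Of the LepR+ cells, 304 had under 5 p10k of Ibsp, so comparisons with LepR+ cells also set low against mostly high Ibsp.

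The antigens stained for the sort were checked in the RNA. Pdgfra, encoding PDGFRα, stood at 228, 326 and 153 CPM, and Itgav, encoding CD51, at 263, 383 and 280 CPM. Pecam1 (CD31) had 5, 0 and 1 UMIs, and Ptprc was at 0 by the rule. Of the 6 genes proposed as markers, 148 of 164 cells held UMIs of at least 4, with a median of 5, where Alpl and Wif1 were part of the choice.

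WT cells had 1948 CPM of Wif1 (1842 to 2059), R76W cells 1302 (1171 to 1444) and D130 cells 1274 (1187 to 1367). Alpl stood at 1280, 785 and 1013 CPM. In LepR+ cells both were low, Wif1 at 63.2, 59.7 and 65.7 CPM and Alpl at 39.0, 42.2 and 27.7, by the rule. Most cells carried both transcripts at 5 p10k or more in WT (48 of 84) and D130 (29 of 50), against 13 of 30 in R76W. Among erythroid cells thinned to 3000 UMIs, which should lack the genes and whose median depth was 24724, 29226 and 33109 UMIs, Wif1 was seen in 1.01%, 0.893% and 0.897%, against 88.0%, 87.5% and 82.6% of Alpl/Wif1 cells thinned likewise. The thinning left out 9, 6 and 4 Alpl/Wif1 cells.

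Spp1 encodes osteopontin, a phosphoprotein that binds mineral and integrins. WT cells had 4281 CPM (4123 to 4444), R76W cells 1917 (1757 to 2087) and D130 cells 6440 (6241 to 6643). The intervals lay apart, with R76W 2.23 times lower than WT and D130 1.5 times higher. The same order held in the Ibsp-high cells, at 6684, 2923 and 11985 CPM, in LepR+ cells, at 777, 338 and 1625, and in osteoblasts, at 3208, 2277 and 4992, so the order was shared by all 4 groups. It did not hold in the Alpl/Wif1 cells at 50 p10k or more of Cxcl12 plus Lepr, where R76W, at 1713 CPM, was above WT, at 1383. In erythroid cells Spp1 stood at 165, 12.0 and 27.9 CPM, and a Spp1 UMI remained in 3.97%, 1.79% and 6.95% of those thinned to 3000 UMIs.

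Postn encodes periostin, a matrix protein of the periosteum and of osteoblast precursors. WT cells had 149 UMIs in 31 cells, or 231 CPM (196 to 272), R76W cells 8 UMIs in 4 cells, or 28.9 CPM (12.5 to 57.0), and D130 cells 170 UMIs in 18 cells, or 276 CPM (236 to 321). R76W was thus 8.00 times lower than WT. After thinning to 3000 UMIs a Postn UMI remained in 22 of 75 WT cells, 0 of 24 R76W cells, which allows a share of up to 12.5% (3 counts), and 12 of 46 D130 cells, against 0.265%, 0% and 0.224% of erythroid cells. LepR+ cells had little Postn, 1.69, 1.01 and 2.18 CPM, and osteoblasts 49.8, 32.0 and 75.4.

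Kcnk2 encodes a potassium channel that opens with membrane stretch. WT cells had 1092 CPM (1013 to 1176), R76W cells 1128 (1007 to 1261) and D130 cells 665 (602 to 732), 1.64 times below WT. Limch1, which encodes a regulator of non-muscle myosin, stood at 2560, 2090 and 1968 CPM. Neither gene shared the low R76W value of Spp1 and Postn, and both were far lower in osteoblasts, Kcnk2 at 33.1, 27.1 and 20.6 CPM and Limch1 at 45.4, 56.3 and 59.7.

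**Figure D1:**
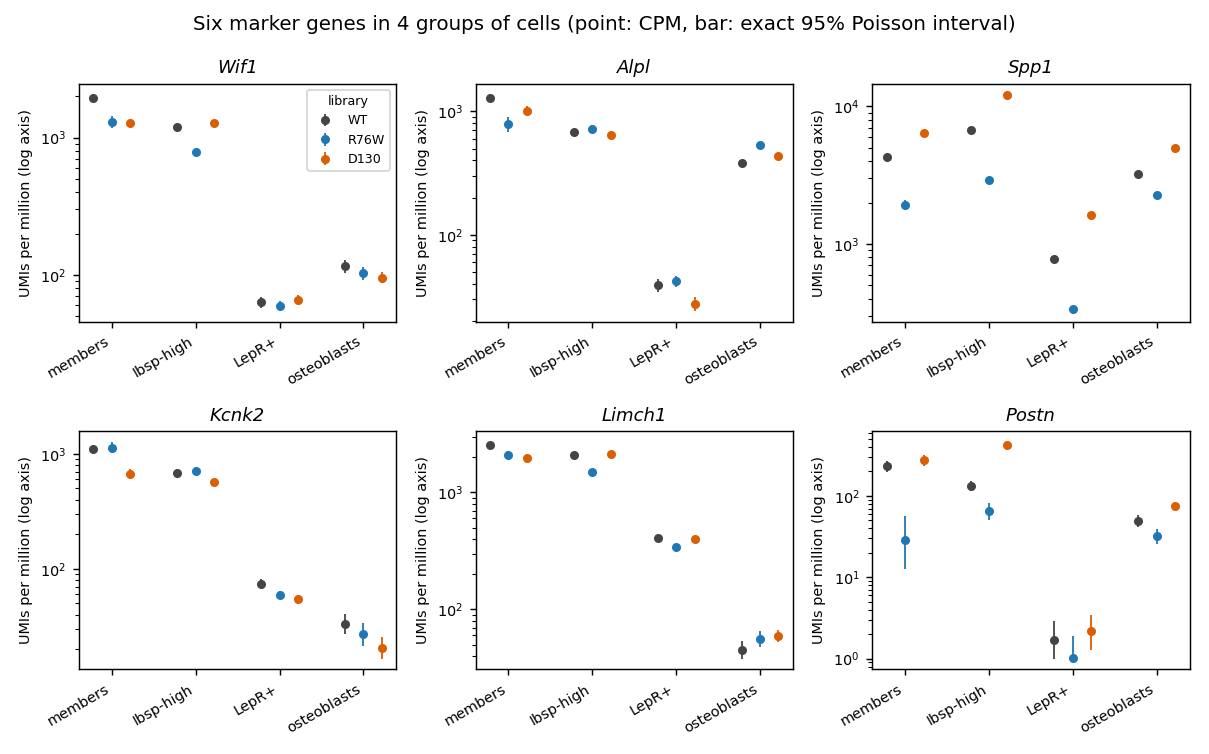
Counts per 1000000 UMIs (CPM, log axis) of the 6 marker genes in the Alpl/Wif1 cells (members), the Ibsp-high Alpl or Wif1 cells, LepR+ cells and osteoblasts, with 1 point per library and bars for exact 95% Poisson intervals. Spp1 lies in the order R76W, WT, D130 in all 4 groups, from 1917 to 6440 in the Alpl/Wif1 cells, and Postn is at 28.9 in R76W Alpl/Wif1 cells against 231 in WT.

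The 250 bases before the first annotated start of Spp1 are shown because Spp1 and Postn were the markers that differed most between libraries and RUNX2, which binds DNA at a core of TGTGGT, is the defining transcription factor of the lineage. The sequences are from RefSeq, build GRCm38.p6, plus strand, 5′ to 3′, with that core in capitals where it occurs, here as read on the opposite strand; Spp1 lies at chr5:104434861-104435110 and Postn at chr3:54360857-54361106.
Spp1: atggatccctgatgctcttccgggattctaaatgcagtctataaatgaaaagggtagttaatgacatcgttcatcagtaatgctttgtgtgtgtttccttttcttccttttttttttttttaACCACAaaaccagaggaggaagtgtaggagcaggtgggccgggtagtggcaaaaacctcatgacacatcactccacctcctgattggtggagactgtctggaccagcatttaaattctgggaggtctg
Postn: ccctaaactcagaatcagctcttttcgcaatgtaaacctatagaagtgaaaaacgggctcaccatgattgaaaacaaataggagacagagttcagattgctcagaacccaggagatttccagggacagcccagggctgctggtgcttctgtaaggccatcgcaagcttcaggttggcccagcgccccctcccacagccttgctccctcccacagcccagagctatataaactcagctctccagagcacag
All 6 markers had such a window, and Spp1 alone held the motif, ending 122 bases before the start. Of 32851 windows of this length, 14.0% held it on either strand. Runx2 RNA itself was at 2355 CPM in WT, 2061 in R76W and 2025 in D130.

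The Alpl/Wif1 cells did not form a single level of LepR+ identity. Their summed Cxcl12 and Lepr ran from 0 to 254 p10k in WT cells, from 14.2 to 468 among R76W cells and up to 399.7 among D130 cells, with medians of 67.4, 134 and 48.0. Under 50 p10k lay 37 of 84 WT cells (44.0%, exact binomial 95% interval 33.2 to 55.3), 6 of 30 R76W cells (20%, 7.71 to 38.6) and 25 of 50 D130 cells (50%, 35.5 to 64.5). At the 50 p10k limit the low value in R76W rests on few cells, and its interval overlaps that of WT. Under 20 p10k lay 25, 1 and 20 cells, or 29.8% (20.3 to 40.7), 3.33% (0.0844 to 17.2) and 40% (26.4 to 54.8). There the R76W and WT intervals did not overlap. In the Ibsp-high cells the share under 50 p10k was 10.1% in WT (6.50 to 14.8), 9.65% in R76W (4.92 to 16.6) and 36.4% in D130 (26.9 to 46.6), with D130 apart from WT. The 50 p10k limit was set after the values were seen and is a point on a range, not a border between types.

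At 50 p10k or more, Cxcl12 stood at 13540, 13363 and 12670 CPM against 16861, 15790 and 17271 in LepR+ cells. Both groups were chosen by Cxcl12 plus Lepr, so high values in both follow from the choice. Adipoq, a marker of adipocyte-primed stroma, stood at 1429, 735 and 813 CPM at that end and at 50.4, 86.0 and 5.24 at the other. Pdzrn4 was at 1493, 1461 and 573 CPM against 6.30, 0 and 0. Bmp4, a bone morphogenetic protein, was at 261, 170 and 163 CPM against 3.15, 0 and 5.24. Kit, the receptor of stem cell factor, was at 79.7, 448 and 77 CPM against no UMI at the low end in any library. The markers outside the rule were also above LepR+ cells at this end, Limch1 at 2162, 1704 and 1882 CPM against 410.2, 340.3 and 401 and Kcnk2 at 889, 969 and 642 against 74.4, 59.4 and 54.1. Cells at this end thus had Limch1 and Kcnk2 beside Adipoq, while their Cxcl12 plus Lepr level was set by the choice.

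The cells under 50 p10k carried osteoblast matrix and cell adhesion genes. Their D130 sum of 381466 UMIs included the 49474 UMIs of 1 cell with a chondrocyte profile, described below. At this end Bglap stood at 2002, 774 and 574 CPM, against 39.9, 30.4 and 47.1 at the other. Spp1 stood at 7256, 2926 and 8247 CPM against 1383, 1713 and 3490. Fat3, an atypical cadherin, was at 2285, 1441 and 1405 CPM against 58.3, 165 and 205, and Nlgn1, a synaptic adhesion protein, at 781, 1011 and 393 against 18.4, 95.6 and 17.1. Car3 (carbonic anhydrase 3) was at 951, 194 and 262 CPM against 12.3, 26.1 and 8.55. Postn was at 431, 129 and 443 CPM against 36.8, 8.69 and 4.28. Their Bglap was far below that of osteoblasts, at 70121, 82548 and 27791 CPM, while their Spp1 was above the osteoblast values given earlier in each library. The rule separated these groups by Ibsp and Col1a1, so their distance in matrix genes was not tested. Of 12 listed osteocyte genes 5 were measured in the Alpl/Wif1 cells, and Phex was higher and Npy lower in R76W than in WT. Npy had the largest excess of all genes ranked under 50 p10k over the other end. After thinning to 3000 UMIs a Npy UMI remained in 12%, 4.17% and 19.6% of Alpl/Wif1 cells and in no LepR+ cell. Sost had no UMI in the Alpl/Wif1 cells of any library and Dmp1 had 1, 0 and 2 UMIs.

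**Figure D2:**
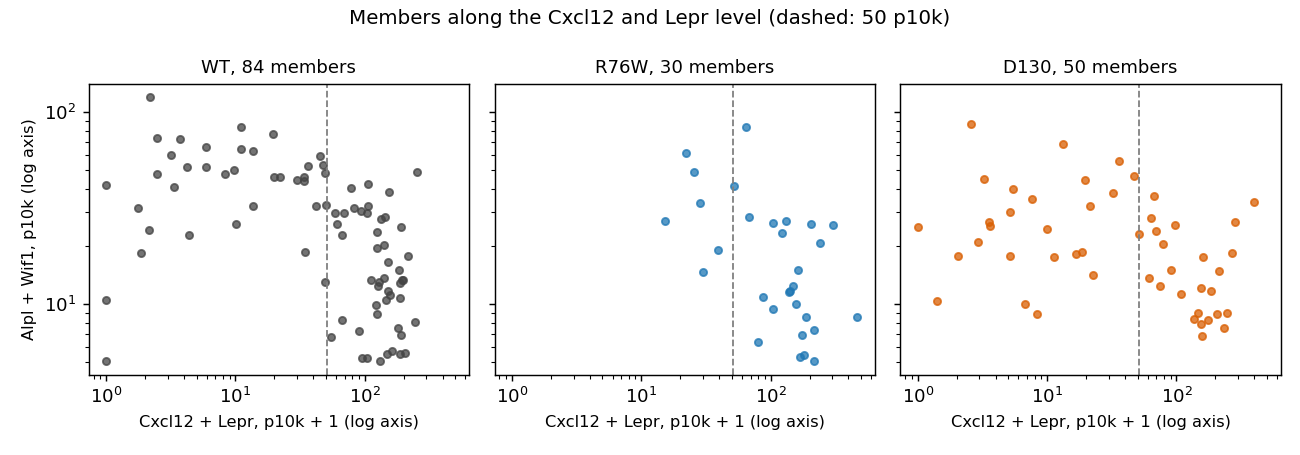
Each point is 1 Alpl/Wif1 cell, with its Cxcl12 plus Lepr level on the horizontal axis and its Alpl plus Wif1 level on the vertical axis (p10k, log axes), in 1 panel per library; the dashed line marks 50 p10k. Left of the line lie 37 of 84 WT cells, 6 of 30 R76W cells and 25 of 50 D130 cells.

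Mesenchymal cells were counted as those without Ptprc or hemoglobin that reached 5 p10k of Alpl plus Wif1, 20 p10k of Cxcl12 plus Lepr, or both 5 p10k of Ibsp and 100 p10k of Col1a1. Of them the Alpl/Wif1 cells made up 5.03% in WT (84 of 1670, 4.03 to 6.19), 2.36% in R76W (30 of 1272, 1.60 to 3.35) and 4.01% in D130 (50 of 1246, 2.99 to 5.26). The R76W and WT intervals did not overlap, and D130 overlapped both. This depended on the denominator: with LepR+ cells limited to under 5 p10k of Ibsp the shares were 15.3% (12.4 to 18.6), 10.53% (7.22 to 14.7) and 11.2% (8.42 to 14.5), and of all kept cells 1.92%, 1.68% and 2.30%, with intervals that overlapped in each case. With the mitochondrial limit at 5% the shares were 4.04%, 1.89% and 2.28%. Cells with Alpl or Wif1 at any Ibsp were 22.2% (20.2 to 24.3), 15.3% (13.3 to 17.3) and 17.6% (15.5 to 19.8) of mesenchymal cells. The intervals of R76W and D130 both lay below that of WT. Within the cells at any Ibsp the Ibsp-low ones described here were 22.6% (18.5 to 27.2), 15.5% (10.7 to 21.3) and 22.8% (17.4 to 29.0), and these intervals overlapped. The intervals cover the counting of cells only, and any difference between libraries in sorting or recovery was not measured.

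In R76W the Alpl/Wif1 cells carried more RNA of Tmem86a, Slc2a13 and Aldh1a2 and less of Postn, Lum, Bglap and Col3a1 than in WT. A gene was counted when the libraries differed at least 1.5 times and their Poisson intervals did not overlap. Of 7495 genes with at least 30 UMIs, 258 were higher in R76W (3.44%) and 355 lower (4.74%), and the median log2 ratio (of CPM + 1) was -0.02. Short genes were lower in R76W: the 749 shortest genes, of median length 3.32 kb, had a median log2 ratio of -0.51 and the 749 longest, of 258 kb, 0.17. With this trend over length subtracted, 223 genes were lower. Ratios of low genes are understated on the CPM + 1 scale.

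Tmem86a, which encodes a lysoplasmalogenase, stood at 69.9 CPM in WT, 322 in R76W and 30.9 in D130, so R76W was 4.60 times (3.18 to 6.74) above WT. Slc2a13, a myo-inositol transporter, stood at 66.8, 286 and 27.6 CPM, 4.28 times (2.91 to 6.35) above WT. Aldh1a2, an enzyme of retinoic acid synthesis, stood at 121, 503 and 26.0 CPM, 4.15 times (3.12 to 5.55) above WT. All 3 genes were higher in R76W also in the cells at 50 p10k or more of Cxcl12 plus Lepr, where the log2 ratios were 1.83, 2.17 and 1.47 against 2.19, 2.08 and 2.04 in all Alpl/Wif1 cells. In Ibsp-high cells the log2 ratios were 1.77, 1.48 and 1.09, and in LepR+ cells 1.17, 1.00 and 1.43, so the direction was the same in each of these groups.

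Rad51b, a homologous recombination gene, stood at 183, 792 and 159 CPM, a log2 ratio of 2.11 in R76W against WT that was 0.42 in the Ibsp-high cells. Fmo2 (flavin-containing monooxygenase 2) stood at 28.0, 123 and 37.4 CPM, with a log2 ratio of 2.10 in the Alpl/Wif1 cells and -0.07 in the Ibsp-high cells. Glul, Klf2 and Zfp36 were also among the 8 highest ratios, at 1.86, 1.82 and 1.76, but without the cell that held most of each gene's UMIs in each library the ratios were 0.85, 1.13 and 0.92 with overlapping intervals. Col8a1, a collagen of short-chain networks, was chosen after its values were seen: it stood at 1810, 5363 and 1926 CPM, and R76W was highest at both ends of the LepR+ range, in the Ibsp-high cells (1381, 3240 and 1943) and in LepR+ cells (482, 1095 and 568).

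Several of the genes lowest in R76W against WT were those found above at the low end of Cxcl12 and Lepr, such as Bglap, Car3 and Postn. Lum (lumican, a collagen-binding proteoglycan) stood at 963 CPM in WT, 141 in R76W and 905 in D130, Col3a1 (collagen type III) at 1221, 206 and 2168, Car3 at 475, 54.3 and 166, and Bglap at 1008, 155 and 374. The log2 ratios of R76W to WT were -2.76, -2.56, -3.11 and -2.69. In the cells at 50 p10k or more they were 1.31, 1.56, 1.03 and -0.38, so 3 of the 4 turned direction. Those values rest on few UMIs, 17 in WT and 30 in R76W for Lum. Beside these genes stood the share of cells under 50 p10k, 44.0% in WT and 20% in R76W. In the Ibsp-high cells, where that share was 10.1% and 9.65%, the ratios were -0.88, -0.03, -1.58 and -0.81. The lncRNA 9130024F11Rik (126, 10.9 and 50.4 CPM), Lurap1l (99.4, 14.5 and 26.0 CPM) and Postn kept a negative ratio in the cells at 50 p10k or more, at -2.08, -1.43 and -1.96, each with overlapping intervals. The eighth, 4833422C13Rik (106, 18.1 and 137 CPM), went from -2.48 to 0.44 there.

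Of the 14 measured genes of mature osteoblast matrix, 1 was higher in R76W (Col5a1) and 8 lower (Col1a1, Bglap, Bglap2, Sparc, Col5a2, Col11a1, Serpinf1 and Omd), with a median log2 ratio of -0.84 against -0.02 over all genes. Of 8 small leucine-rich proteoglycans, which organise collagen fibrils, 5 were lower (Dcn, Lum, Fmod, Omd and Aspn) and none higher, with a median of -1.46. Dcn (decorin) stood at 2167 CPM in WT, 568 in R76W and 1843 in D130. In the cells at 50 p10k or more, the medians of the lists were 0.17 and 0.41, with 3 and 2 genes higher and none lower. For Ibsp-high cells they were 0.06 and 0.07, with 0 genes higher and 2 lower in each list. Over all 7495 genes, 1.71% were higher and 1.81% lower in R76W in the cells at 50 p10k or more. In the Ibsp-high cells these shares were 2.72% and 3.86%, against 3.44% and 4.74% in all Alpl/Wif1 cells.

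Genes of LepR+ identity stood on the other side, 8 of 22 higher in R76W and 1 lower, with a median of 0.52. They included Lepr (696, 1280 and 497 CPM), Cxcl12 (7420, 11399 and 5325), the transcription factor Foxc1 (298, 669 and 239) and Esm1 (194, 427 and 138), and the lower one was Ptn. Among the cells at 50 p10k or more the median was -0.04, with 2 genes higher and 4 lower. In the BMP and TGF-beta pathway, which drives osteoblast commitment, 11 of 30 genes were higher and 1 lower, with a median of 0.33. Among ligands, Bmp6 stood at 345, 723 and 229 CPM and Gdf10 at 158, 380 and 117. Among extracellular antagonists and modulators, Bmper stood at 93.2, 307 and 87.8 CPM and Fst at 144, 250 and 146. The target gene Id3, an inhibitor of differentiation, was the lower one, at 1858, 835 and 1614 CPM. Without each gene's top cell, 9 of the 11 were still higher. At 50 p10k or more the median was 0.10, with 2 genes higher and 1 lower.

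Immediate early genes, whose transcription follows stimulation or cell handling within minutes, were higher for 11 of 15 in R76W, with a median of 1.00. One R76W cell held 57.4% of the list's UMIs in that library (714 of 1243) with 2.89% of all UMIs of its Alpl/Wif1 cells. Without it no gene of the list was higher, 1 was lower, and the median was 0.12. The summed list stood at 2026, 4495 and 1058 CPM, and without the top cell of each library these levels were 1740, 1970 and 858 CPM.

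**Figure D3:**
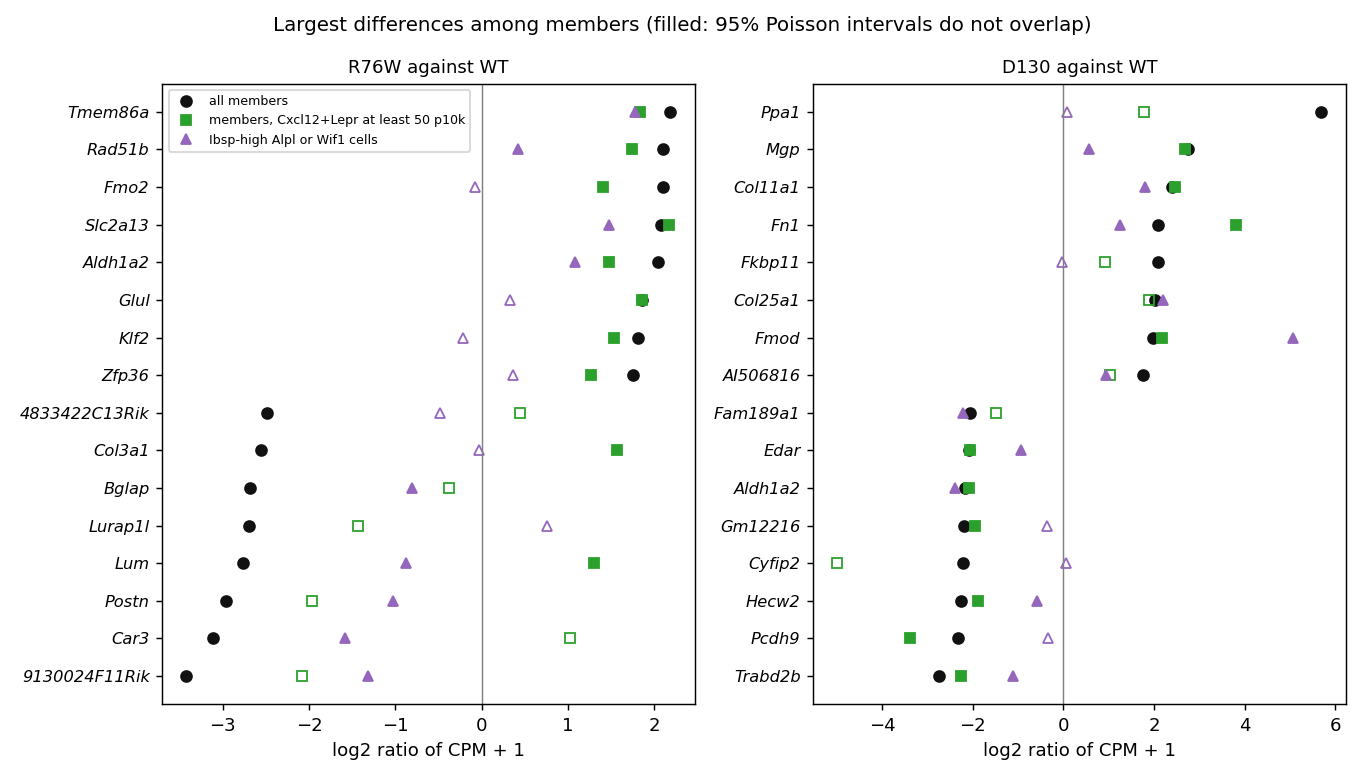
Log2 ratio of CPM + 1 for the 8 highest and 8 lowest genes of R76W against WT (left) and D130 against WT (right), in all Alpl/Wif1 cells (members, circles), those at 50 p10k or more of Cxcl12 plus Lepr (squares) and the Ibsp-high cells (triangles); filled symbols mark Poisson intervals that do not overlap. Tmem86a, Slc2a13 and Aldh1a2 lie above 1 in all 3 groups on the left, while Lum and Col3a1 lie at -2.76 and -2.56 in all Alpl/Wif1 cells and at 1.31 and 1.56 in those at 50 p10k or more.

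In D130 the Alpl/Wif1 cells carried more RNA of the matrix proteins Mgp, Fn1, Col25a1 and Fmod and of chaperones, and less of Trabd2b, Pcdh9, Aldh1a2 and adipocyte-related genes, than in WT. Of the 7495 genes, 286 were higher (3.82%) and 382 lower (5.1%), with a median log2 ratio of -0.06. In the cells at 50 p10k or more of Cxcl12 plus Lepr the shares were 1.65% and 2.44%, and in the Ibsp-high cells 2.68% and 4.35%. The comparison uses the same WT cells as that of R76W. The 749 longest genes had a median of -0.30 and the shortest 0.14, and with the trend over length subtracted 244 genes were lower. The median mitochondrial share was 4.996% in D130 and 3.05% in WT, and its part in these differences was not tested beyond the 5% limit.

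Mgp (matrix Gla protein, an inhibitor of mineralization) stood at 148, 430 and 993 CPM, so D130 was 6.73 times (5.41 to 8.44) above WT. The log2 ratio was 2.74, and 2.69 in the cells at 50 p10k or more, against 0.56 in the Ibsp-high cells and 0.67 in LepR+ cells. Fn1 (fibronectin) stood at 320, 188 and 1375 CPM, 4.30 times (3.69 to 5.03) above WT, with log2 ratios of 2.10 in all Alpl/Wif1 cells, 3.80 at 50 p10k or more and 1.26 in the Ibsp-high cells. Col25a1, a transmembrane collagen, stood at 34.2, 0 and 143 CPM, with log2 ratios of 2.03, 1.90, 2.20 and 1.60 in all Alpl/Wif1 cells, those at 50 p10k or more, the Ibsp-high cells and LepR+ cells. Fmod (fibromodulin) stood at 55.9, 3.62 and 223 CPM, a log2 ratio of 1.97, which was 1.40 without its top cells and 5.08 in the Ibsp-high cells.

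A single D130 cell with a chondrocyte profile carried other high values. It had 49474 UMIs, 8.04% of the UMIs of the D130 Alpl/Wif1 cells, and held 2401 of their 2413 Col2a1 UMIs and 138 of 142 Acan UMIs, with 51 UMIs of Alpl and none of Wif1. Col2a1 and Acan encode cartilage collagen and aggrecan, and chondrocytes that mineralize their matrix also use Alpl. Col11a1 was at 219, 86.8 and 1154 CPM with 74.4% of its D130 UMIs in 1 cell, and its log2 ratio of 2.39 became 0.74 without each library's top cell. Ppa1, at 14.0, 3.62 and 775 CPM, had 96.0% of its D130 UMIs in 1 cell, and its ratio of 5.70 became 1.53 with overlapping intervals. Fkbp11 went likewise from 2.09 to 1.23. The eighth high gene, AI506816 (29.5, 25.3 and 102 CPM), kept its ratio of 1.76. Without the chondrocyte-profile cell 1 of 11 measured chondrocyte markers was higher in D130, against 10 with it.

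On the lower side, Trabd2b, which encodes a protease that inactivates Wnt proteins, stood at 148 CPM in WT, 322 in R76W and 21.1 in D130, which was 6.98 times below WT. Pcdh9, a protocadherin, stood at 337, 224 and 66.6 CPM, Hecw2, a ubiquitin ligase, at 143, 79.6 and 29.3, Edar, the ectodysplasin receptor, at 65.2, 50.6 and 14.6, and Fam189a1 at 63.7, 123 and 14.6. The log2 ratios of D130 to WT were -2.75 for Trabd2b, -2.32 for Pcdh9, -2.25 for Hecw2, -2.08 for Edar and -2.05 for Fam189a1, and in the cells at 50 p10k or more all 5 were negative, the first 2 at -2.26 and -3.39. Cyfip2 and Gm12216 complete the 8 lowest, at -2.22 and -2.19. Aldh1a2 was 4.66 times lower than in WT, with a log2 ratio of -2.18 in the Alpl/Wif1 cells, -2.38 in the Ibsp-high cells and -1.87 in LepR+ cells.

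Chaperone lists were higher in D130. Of 7 heat shock genes 6 were higher and none lower, with a median of 0.81. Hspa8, a constitutive member of the HSP70 family, stood at 558 CPM in WT, 499 in R76W and 980 in D130, Hsp90aa1 at 155, 141 and 319 and Hsp90ab1 at 519, 456 and 899. These 3 remained higher without each gene's top cell, and 3 genes of the list were higher without the chondrocyte-profile cell. Of 14 genes of the unfolded protein response, which answers protein overload in the endoplasmic reticulum, 5 were higher, with a median of 0.55. The chaperone Hspa5 (BiP) stood at 657, 864 and 1016 CPM, Calr (calreticulin) at 368, 430 and 740, and Manf at 176, 105 and 333. Of the 14, 3 were higher without the chondrocyte-profile cell. In the cells at 50 p10k or more 2 heat shock genes and 1 unfolded protein response gene were higher, with medians of 0.62 and 0.30. In the Ibsp-high cells 2 heat shock genes and 4 unfolded protein response genes were higher in D130, with medians of 0.56 and 0.51. Of 12 glycolysis genes 5 were higher in all Alpl/Wif1 cells and 2 without the chondrocyte-profile cell.

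Adipocyte-related genes were lower for 6 of 14 in D130 and higher for none, with a median of -0.52. Adipoq (adiponectin) stood at 749 CPM in WT, 626 in R76W and 312 in D130, Lpl (lipoprotein lipase) at 988, 882 and 545, Apoe at 3445, 3454 and 1924, and Cebpa, a transcription factor of fat cells, at 155, 181 and 68.3. In the cells at 50 p10k or more 5 of the 14 were lower, with a median of -0.64, and in the Ibsp-high cells 3, with a median of -0.35. Pparg, the master regulator of adipocytes, stood at 216, 206 and 151 CPM with overlapping intervals. LepR+ identity genes were lower for 7 of 22, higher for 1 (Ptn), with a median of -0.48, which was -0.36 without the chondrocyte-profile cell and -0.18 with every cell thinned to 3000 UMIs. In the Ibsp-high cells 10 of the 22 were lower, and the share under 50 p10k of Cxcl12 plus Lepr there was 36.4% in D130 against 10.1% in WT.

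Several signals to and from the niche were lower in D130. Of 13 niche factors, which support blood stem cells and progenitors, 6 were lower and 1 higher, with a median of -0.48. Without the chondrocyte-profile cell 4 were lower, in the cells at 50 p10k or more 2, and with every cell thinned to 3000 UMIs 1 of 11, with medians of -0.36, -0.35 and -0.43. Angpt1 (angiopoietin 1) stood at 249, 333 and 112 CPM and Il7, a lymphocyte growth factor, at 106, 177 and 48.8, while the higher one, Ptn (pleiotrophin), stood at 40.4, 0 and 97.5. Of 15 Wnt ligands, agonists and receptors 5 were lower, with a median of -0.45. They included the ligand Wnt4 (110, 94.0 and 30.9 CPM), the agonist Rspo2 (295, 470 and 130) and the R-spondin receptor Lgr4. They also included the LDL receptor-related genes Lrp4 (339, 221 and 119 CPM) and Lrp6. Without the chondrocyte-profile cell 4 genes of this list were lower, and in the cells at 50 p10k or more 3, with medians of -0.39 and -0.26. In the Ibsp-high cells 3 were lower and 2 higher, with a median of 0.008. Of 30 BMP and TGF-beta genes 6 were lower, with a median of -0.30, among them the ligands Bmp4 (134, 141 and 65.0 CPM) and Bmp6 and the antagonist Grem1 (140, 300.2 and 60.1). Without the chondrocyte-profile cell 5 genes of this list were lower, and in the cells at 50 p10k or more 2, with medians of -0.34 and -0.29. In the Ibsp-high cells 7 were lower and 1 higher, with a median of -0.25. Bmp4 was among the genes found above to be higher at 50 p10k or more. Immediate early genes were lower for 6 of 15, with a median of -0.77. Fos stood at 314, 781 and 79.6 CPM, and without each gene's top cell Fos, Fosb, Jun, Junb and Jund remained lower.

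Between the mutants, 586 of the 7495 genes were higher in D130 than in R76W (7.82%) and 594 lower (7.93%). The 749 shortest genes had a median log2 ratio of 0.63 and the longest -0.45. The 5 highest ratios were matrix and adhesion genes: Col11a1 at 3.72, Col3a1 at 3.39, Postn at 3.21, Tenm3 at 2.93 and Fn1 at 2.86. Without each library's top cell Col11a1 was at 2.67, and at 1.88 without the chondrocyte-profile cell. In the cells at 50 p10k or more Postn turned to -0.88, while Col3a1, Tenm3 and Fn1 stood at 1.94, 1.81 and 2.46. The 5 lowest were Aldh1a2 at -4.22, Trabd2b at -3.87, Tmem86a at -3.34, Slc2a13 at -3.32 and Jun at -2.89. Jun is an immediate early gene, and 1 R76W cell held 57.4% of that list's UMIs in its library. Over the alternatives its ratio ran from -3.82 to -1.36, and it remained lower without each gene's top cell. Mature osteoblast matrix was higher for 9 of 14 genes, with a median of 0.87, LepR+ identity lower for 14 of 22, with a median of -0.96, and BMP and TGF-beta genes lower for 17 of 30 and higher for 2, with a median of -0.62. In the cells at 50 p10k or more these medians were 0.49, -0.11 and -0.43.

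Aldh1a2, Tmem86a and Slc2a13 had the order R76W, WT, D130 in the Alpl/Wif1 cells. Aldh1a2 differed 19.3 times between the mutants, and its log2 ratio of D130 to R76W was -3.55 in the cells at 50 p10k or more, -3.47 in the Ibsp-high cells and -3.30 in LepR+ cells. This difference was therefore found in each stromal group compared and was not limited to the Alpl/Wif1 cells.

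**Figure D4:**
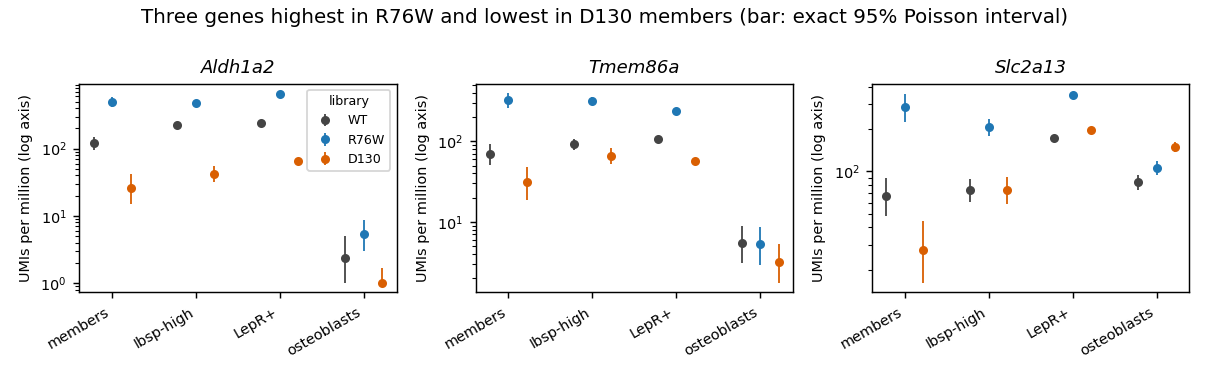
Counts per 1000000 UMIs (CPM, log axis) of Aldh1a2, Tmem86a and Slc2a13 in the Alpl/Wif1 cells (members), Ibsp-high cells, LepR+ cells and osteoblasts, with 1 point per library and bars for exact 95% Poisson intervals. Aldh1a2 lies in the order R76W (503), WT (121), D130 (26.0) in the Alpl/Wif1 cells, and Aldh1a2 and Tmem86a have this order in all 3 stromal groups.

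Few transcription factors of the osteoblast lineage were counted as different. Of 17 measured, Snai2 and Lef1 were higher and Mef2c lower in R76W, and in D130 Snai2 and Lef1 were higher and those lower included Sp7. Without the top cell of each library Lef1 had overlapping intervals in both comparisons, and Snai2 remained higher in both. Sp7 (osterix), which acts after RUNX2, stood at 179, 105 and 102 CPM. Snai2, a repressor of epithelial genes, stood at 214, 405 and 343 CPM and Mef2c, which regulates osteocyte and muscle genes, at 242, 119 and 242. Among Ibsp-high cells 1 gene of the list was higher and 2 lower in R76W, and 3 were lower in D130.

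Gja1 is the gene of Cx43 itself, and WT cells had 1695 CPM (1596 to 1798), R76W cells 1786 (1632 to 1951) and D130 cells 1985 (1875 to 2099). The R76W interval overlapped that of WT, and D130 was 1.17 times (1.08 to 1.27) above WT. The log2 ratio of D130 to WT, 0.23, turned to -0.071 with the mitochondrial limit at 5% and to -0.034 in the cells under 100 p10k of Cxcl12 plus Lepr. The counts cannot separate mutant from native transcripts, so they do not check the genotypes. In LepR+ cells Gja1 stood at 714, 1162 and 1186 CPM, both mutants above WT. Gjc1, encoding connexin 45, stood at 24.9, 47.0 and 82.9 CPM, from 16, 13 and 51 UMIs, and D130 was 3.34 times (1.87 to 6.27) above WT. It was the 1 of 3 measured connexin and pannexin genes counted as different from WT, in D130.

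Of the prostaglandin E2 genes 7 of 14 were measured. Among enzymes of synthesis, Ptgs2 (COX-2) had 3 UMIs in WT and none in the mutants and Ptges had 6, 4 and 6 UMIs, so neither allowed a comparison. Pla2g4a, a phospholipase that frees arachidonic acid, stood at 96.3, 39.8 and 92.7 CPM, and Hpgd, which degrades prostaglandins, at 135, 54.3 and 87.8. Both were lower in R76W, as was Cbr1, which had 24, 0 and 18 UMIs. Among receptors, Ptger4 stood at 20.2, 65.1 and 27.6 CPM and was 3.22 times (1.49 to 7.16) higher in R76W, and Ptger3, with 21, 6 and 4 UMIs, was lower in D130. Among Ibsp-high cells 1 of the 7 was lower in R76W and none higher, and none differed in D130.

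Beside LepR+ cells of any Ibsp, Fat3, Hs3st5, Cpe and Ndnf were among the 10 genes with the largest excess in the Alpl/Wif1 cells in every library. Against LepR+ cells under 5 p10k of Ibsp, Fat3, Hs3st5 and Ndnf were among the 10 and Cpe was not. Fat3 stood at 1157, 380 and 949 CPM against 0.650, 0.676 and 1.69 in LepR+ cells. Hs3st5, a heparan sulfate sulfotransferase, stood at 272, 61.5 and 146 CPM against 0.130, 1.69 and 1.93, and Cpe (carboxypeptidase E) at 241, 54.3 and 193 against 0.520, 2.03 and 1.45. Ndnf, a secreted neurotrophic factor, stood at 528, 333 and 416 CPM against 30.4, 25.5 and 33.1. Like Fat3, these 3 were higher under 50 p10k of Cxcl12 plus Lepr than at 50 or more in each library. Hs3st5 stood there at 513, 258 and 209.7 CPM against 36.8, 21.7 and 42.8, Cpe at 475, 108 and 280.5 against 12.3, 43.5 and 51.3, and Ndnf at 907, 1463 and 488 against 159, 104 and 299. In the other direction, the chemokine Ccl2 stood at 54.4, 54.0 and 480 CPM in LepR+ cells and had 2, 0 and 3 UMIs in the Alpl/Wif1 cells. Prelp, a proteoglycan, stood at 239, 213 and 202 CPM in LepR+ cells against 12.4, 18.1 and 24.4. Beside osteoblasts, Igf1 (insulin-like growth factor 1) stood at 769, 922 and 538 CPM against 6.15, 7.74 and 3.89, and the chemokine Cxcl14 at 1985, 2669 and 975 against 33.1, 41.9 and 11.9. Cpz, a carboxypeptidase that modulates Wnt signals, had no UMI in the Alpl/Wif1 cells and 389, 366 and 299 CPM in osteoblasts. Since the rule separated these groups, no test is given.

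Beside the Ibsp-high cells, which differ from them only in Ibsp by the rule, the Alpl/Wif1 cells had smaller differences. Gdf10 stood at 158, 380 and 117 CPM against 67.3, 59.8 and 46.8 in the Ibsp-high cells, Vcan (versican) at 544, 137 and 385 against 69.7, 62.7 and 171, and Hey1, a Notch target, at 90.1, 90.4 and 76.4 against 40.1, 43.1 and 31.2. Ccn5, a matricellular protein, was lower, at 52.8, 116 and 40.6 CPM against 216, 374 and 160.

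Cells with at least 5 p10k of Wif1 numbered 66, 24 and 41, and the others, chosen through Alpl, 18, 6 and 9. Mipep, a mitochondrial peptidase, stood at 155, 82.7 and 141 CPM with Wif1 and at 7.78, 14.1 and 13.7 without, from 1 or 2 UMIs in each of the latter. Slc36a2, an amino acid transporter, stood at 215, 92.5 and 113 CPM against 54.4, 0 and 20.5. Higher without Wif1 were Cpa6, a carboxypeptidase, at 132, 295 and 144 CPM against 46.6, 29.2 and 49.0, and Chst11, a chondroitin sulfotransferase, at 249, 507 and 281 against 105, 248 and 81.0. Of the genes measured, 3 were at least 4 times higher with Wif1 in every library.

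Dividing cells were few. At least 10 UMIs of cell cycle genes were found in 3 of 84 WT cells, 0 of 30 R76W cells, which allows a share of up to 10% (3 counts), and 5 of 50 D130 cells (10%, 3.33 to 21.8). They held 70.6% of the list's UMIs in WT and 94.3% in D130, so the 10 of 13 listed genes that were higher in D130 rest largely on 5 cells. Mki67 had no UMI in the cells at 50 p10k or more of Cxcl12 plus Lepr in any library.

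Markers of other cell types were mostly at trace levels in the Alpl/Wif1 cells. Summed over each list, endothelial markers stood at 23.3 CPM in WT, 21.7 in R76W and 22.8 in D130, neutrophil markers at 46.6, 61.5 and 71.5, monocyte and macrophage markers at 15.5, 7.23 and 19.5, and lymphocyte markers at 6.21, 0 and 0. Erythroid markers stood at 587, 213 and 393 CPM with Alas2 at 0 in all 3 libraries, and 3 of 7 measured were lower in each mutant. Fibroblast markers summed to 3787, 1219 and 3969 CPM, led by Dcn, which osteoblast precursors also express, while 6 of the 12 were at 0 in WT, 7 in R76W and 3 in D130. Clec3b, Pi16 and Cd34 were at 0 in every library, and Ly6a, Mfap5 and Dpt had 5, 2 and 1 UMIs in D130 and none in WT or R76W. Pericyte and smooth muscle markers stood at 230, 293 and 296 CPM. Schwann cell markers stood at 235, 221 and 270 CPM, from S100b, with Sox10 at 0. The part of these RNAs in the differences between libraries was not tested.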

How the data were processed

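Single-cell RNA was measured in 3 libraries, 1 per genotype. The authors deposited UMI counts per gene and barcode, made with Cell Ranger 7.0.1 per the file headers, and the submitters' processing notes name Seurat and mm10. The 32285 features were used as 32245 symbols, with rows of the same symbol summed. The libraries held 7352, 3317 and 4245 barcodes with 81837778, 29558251 and 46897983 UMIs. The rule for the cells, the gene lists and the comparisons were chosen with earlier results of these data known.

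Raw UMIs were summed over the cells of each group and library, and given as CPM with exact Poisson 95% intervals (scipy 1.17.1, numpy 2.4.6, pandas 2.3.3, Python 3.11.15). Ratios used CPM + 1 on the log2 scale; intervals of linear ratios are exact binomial intervals conditional on the total. Shares have exact Clopper-Pearson intervals. The limit that a count of 0 allows is 3 counts. Mesenchymal cells were counted with LepR+ cells of any Ibsp, which also served as the LepR+ comparison group, a choice made after seeing the data. The design had limited LepR+ cells to under 5 p10k of Ibsp. All intervals cover counting error only. Genes were counted at a ratio of 1.5 with Poisson intervals apart, stricter than the ratio alone that the design set. With 1 library per group no test was run, and the ratio scripts were checked on simulated counts. Doublets were kept in the main values and removed in an alternative: scanpy 1.11.5 Scrublet scores marked 153, 15 and 32 cells (in WT by rank, since its automatic threshold marked 0), none of them an Alpl/Wif1 cell.

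Named genes were the 6 markers and rule genes; the 8 highest and 8 lowest ratios to WT, and 5 and 5 between mutants, among genes with at least 50 UMIs in 20 cells, 20 CPM in 1 library and intervals apart, leaving out genes of mitochondria, ribosomes, hemoglobin, immunoglobulins, sex chromosomes, blood and endothelium and those higher in erythroid cells of both libraries; up to 4 genes of a list, beside those its roles need; and the genes with the largest ratios to LepR+ cells, osteoblasts or Ibsp-high cells and between the cells with and without Wif1. Within these lists only some are printed. Genes at the ends of the Cxcl12 and Lepr range, and Col8a1, were named after their values were seen. Alternatives varied the rule, depth, scaling, filters and single cells.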

Additional observations from a re-analysis of the deposited data

Results flagged for a closer look

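Car3, which encodes carbonic anhydrase 3, differed in direction between neighbouring cells in D130 against WT. The log2 ratio was -1.51 in the Alpl/Wif1 cells, at 475 CPM in WT and 166 in D130, and 0.67 in the Ibsp-high cells. With 1 library per genotype the difference between these ratios was not tested.

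Barcodes above the mitochondrial limit, which no comparison used, held some that met the rest of the rule. There were 21 of 419 such barcodes in WT, 10 of 190 in R76W and 6 of 193 in D130, or 5.01%, 5.26% and 3.11%. Their median mitochondrial share was 14.5%, 16.1% and 15.8%, and their median depth 2291, 3591 and 7916 UMIs.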

How the results depend on the processing

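No paired analysis was possible because each genotype was 1 library and the labels carry no replicate numbers. With 1 library per genotype and 30 R76W cells, genes under about 30 UMIs were not compared. Over the alternatives listed at the start, 310 values of shares, counts and list medians stayed close to those reported, 25 moved and 1 reversed; of single genes' values 861 stayed close, 110 moved and 5 reversed. Over those added later the numbers were 37, 17 and 3, and 125, 49 and 9. Removing doublet calls removed no Alpl/Wif1 cell. The alternative of cells with no Wif1 UMI was not run, since R76W had none. Except where the alternative's construction is named, the cause was not tested.

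Among the alternatives listed at the start, a limit of 10 p10k for Alpl plus Wif1 gave a median log2 ratio of 1.73 for immediate early genes in R76W against WT. A mitochondrial limit of 5% gave a D130 share of 2.28%, a glycolysis median of 1.29 in D130 against WT and a Gja1 ratio of -0.071. Only cells with 5 p10k of Wif1 gave, in D130 against WT, 161 genes higher and 210 lower, a glycolysis median of 0.23 and a LepR+ identity median of -0.28. Only cells under 100 p10k of Cxcl12 plus Lepr gave 231 genes lower in R76W and 254 in D130 against WT, 332 lower in D130 against R76W, immediate early medians of 0.067 and -0.082, and a LepR+ identity median of -0.30 in D130. There the ratio of Klf2 in R76W was -0.49, of Limch1 in R76W 0.16, of Gja1 in D130 -0.034 and of Alpl in D130 against R76W -0.11. Thinning to 3000 UMIs, which leaves fewer counts, gave 91 higher and 115 lower in R76W, 71 and 81 in D130, 142 and 136 between the mutants, a LepR+ identity median of -0.18 in D130, and 5 genes at least 4 times higher with Wif1. With each cell weighted equally that identity median was -0.31. With the length trend subtracted, 223, 244 and 391 genes were lower in the comparisons of R76W with WT, D130 with WT and D130 with R76W. With genes of at least 1 UMI, the proteoglycan median in R76W was 0, a setting that adds listed genes with few UMIs.

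With LepR+ cells under 5 p10k of Ibsp as the design set, the shares of mesenchymal cells were 15.3%, 10.53% and 11.2%. Chosen after seeing the data, leaving out the chondrocyte-profile cell gave medians in D130 of 0.30 for glycolysis and -0.36 for LepR+ identity. Leaving out each gene's top cell gave 160 genes higher in R76W, 188 higher in D130, and an immediate early median of 0.10 in R76W. Only cells with 50 p10k or more of Cxcl12 plus Lepr, which are fewer, gave 128 genes higher and 136 lower in R76W, 124 and 183 in D130, and 212 and 219 between the mutants. In R76W the medians there were 0.41 for proteoglycans, 0.17 for osteoblast matrix, -0.038 for LepR+ identity and 0.10 for BMP and TGF-beta, and in D130 -1.28 for immediate early genes and -0.29 for LepR+ identity. In R76W against WT, Car3 was at 1.03, Lum at 1.31, Col3a1 at 1.56, 4833422C13Rik at 0.44, Spp1 at 0.31 and Wif1 at 0.10. Wif1 was at 0.0080 in D130 against WT, and Postn at -0.88 and Alpl at -0.023 in D130 against R76W.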
